A study of Mus musculus with 8 samples.

Results

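The 41 genes described here run the copying of DNA and the division of the cell. They were taken as the rows of the authors' comparison table that carry their symbols, joined by Ensembl identifier to the 8 columns of the deposited counts, out of 49671 identifiers in that table. All 41 were found, 16 that act in or around S phase and 25 that act in mitosis, and all 41 passed the filter on low counts. The cells came from whole lungs of 8 adult mice. In 4 control mice (Gli2creERT2-tdt:R26RYFP) a tamoxifen-inducible Cre recombinase made from the Gli2 gene switched on a yellow fluorescent reporter. The 4 SmoM2-labelled mice (Gli2creERT2-tdt:R26RYFP/SmoM2) carried in addition SmoM2, an always-active form of the Hedgehog signal transducer Smoothened. It was meant to be switched on by the same Cre. For the SmoM2 lungs the labels state 5 days of intraperitoneal tamoxifen at 200 mg per kg daily. Whether controls received it is not given in the sources used here. Live reporter-positive cells were sorted from enzyme-digested lung, and their polyadenylated RNA was sequenced. Both the Cre and the reporter therefore depend on cells that make Gli2, and the sort was on the reporter alone.

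A cell that leaves rest switches on E2F1 and the E-type cyclins, which start the production of the replication machinery. The MCM proteins form the helicase that opens the DNA, PCNA is the clamp that holds the polymerases on it, and ribonucleotide reductase and thymidylate synthase make the building blocks. Later in the cycle B-Myb and FOXM1 switch on the mitotic genes, among them cyclin A2, cyclin B, CDK1, and the kinases and motors of the spindle. Cells at rest hold the mitotic transcripts very low, while many replication proteins are also needed for DNA repair and are made at some level in resting tissue. Adult lung fibroblasts are mostly resting cells.

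The 250 bases before the start of 4 members are shown because the mitotic and replication members differed below in how they varied, and their promoters are known to carry different motifs. The sequences are RefSeq's, build GRCm38.p6, 5′ to 3′ on the gene's strand. Capitals mark every match, on either strand, to a CHR, a CCAAT box or an E2F site. For the CHR, TTTGAA was searched, and as the other accepted form of this element TTCGAA. For the box the search used CCAAT alone. For E2F it used TTTGGCGC, TTTCCCGC, TTTGCCGC and TTTCGCGC. In Mcm6 the leftmost pair of E2F matches overlap, which gives a single longer run of capitals.
Mki67 (chr7:135716380-135716629, minus strand): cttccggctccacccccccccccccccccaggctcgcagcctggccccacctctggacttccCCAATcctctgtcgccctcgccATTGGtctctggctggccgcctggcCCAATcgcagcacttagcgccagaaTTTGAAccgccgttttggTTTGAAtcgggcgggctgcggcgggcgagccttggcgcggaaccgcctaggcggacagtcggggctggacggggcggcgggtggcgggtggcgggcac
Top2a (chr11:99024190-99024439, minus strand): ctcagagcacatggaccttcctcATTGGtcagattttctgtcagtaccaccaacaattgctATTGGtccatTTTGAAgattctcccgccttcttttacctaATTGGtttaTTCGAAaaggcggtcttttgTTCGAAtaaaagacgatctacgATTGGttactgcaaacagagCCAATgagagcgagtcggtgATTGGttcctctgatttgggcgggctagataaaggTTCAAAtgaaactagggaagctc
Rrm1 (chr7:102441445-102441694, plus strand): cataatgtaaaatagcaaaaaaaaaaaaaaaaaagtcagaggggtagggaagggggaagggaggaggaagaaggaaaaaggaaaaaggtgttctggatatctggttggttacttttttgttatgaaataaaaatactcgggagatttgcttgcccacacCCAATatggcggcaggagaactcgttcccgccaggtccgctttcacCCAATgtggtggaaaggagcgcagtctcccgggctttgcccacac
Mcm6 (chr1:128359706-128359955, minus strand): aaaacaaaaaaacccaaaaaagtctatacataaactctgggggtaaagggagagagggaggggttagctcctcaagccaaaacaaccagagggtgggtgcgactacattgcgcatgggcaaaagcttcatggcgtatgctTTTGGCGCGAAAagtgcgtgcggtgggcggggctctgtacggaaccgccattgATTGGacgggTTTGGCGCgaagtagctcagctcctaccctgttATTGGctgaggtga
Mki67 held 2 CHR matches, 116 and 98 bases before the start, and 3 CCAAT boxes. Top2a held 4 CHR matches and 6 CCAAT boxes. Mcm6 held 3 E2F matches and 2 CCAAT boxes, and Rrm1 held 2 CCAAT boxes. Of the members, 20 of 25 mitotic and 13 of 16 S phase genes had an entry. A CHR stood in 42.9% of the 21 promoters of mitotic members, in 14.3% of the 14 promoters of S phase members and in 17.1% of all 32851 promoters in the table. A CCAAT box stood in 85.7%, 64.3% and 33.8%, and an E2F site in 4.76%, 35.7% and 1.86%. Every mitotic promoter with a CHR also held a CCAAT box. These are matches of letters and were not tested for binding.

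Library totals ran from 91.6 to 111.6 M units, or 18.3 to 22.3 M fragments if each fragment adds 5 units. Levels are given as CPM, the deposited units of a gene per M units of its library. For this each library total was scaled by its TMM factor from edgeR. No gene that reports Hedgehog activity passed the test for the change that the label names (adjusted p = 0.9999 each, edgeR). Gli1, the transcription factor that the pathway induces, lay between 62.7 and 136.5 CPM in the controls and between 77.0 and 122.0 CPM in the SmoM2-labelled libraries, with a log2 fold change of 0.03 (95% interval −0.54 to 0.60). Ptch1 and Hhip, also targets, had log2 fold changes of −0.12 (−0.74 to 0.51) and 0.23 (−0.55 to 1.01). Stromal markers were high in every library, with the collagens Col3a1 and Col1a2 between 3817 and 9699 CPM. Each group held 2 male and 2 female libraries by their Xist level. Controls 1 and 3 and SmoM2 1 and 2 were male.

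No replication or mitosis gene passed the test between the groups. edgeR's quasi-likelihood test called 0 of the 16 S phase members and 0 of the 25 mitotic members at an adjusted p under 0.05, beside 0% of all 20162 genes tested. The smallest adjusted p among the members was 0.9999. At an unadjusted p under 0.05 edgeR again counted 0 of 41, beside 3.75% of all genes tested. DESeq2 gave no p for Aurkb. Among the other members it called 0, beside 0.275% of the genes it tested, and 0 had an unadjusted p under 0.05. The CPM ranges of the groups overlapped for all 41 members, while 2.44% of all genes tested had groups that did not overlap. None of the 41 had a p under 0.05 in the authors' deposited table, where the smallest, 0.136, was that of Ccne1.

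The median log2 fold change was 0.07 over the 16 S phase members (11 estimates higher, 5 lower) and 0.07 over the 25 mitotic members (17 higher, 8 lower), beside −0.004 over all genes tested. The precision behind these like medians differed. For 13 of the 16 S phase members the 95% interval of the change lay within 2-fold in both directions, but for only 6 of the 25 mitotic members. For most mitotic members a 2-fold change in at least 1 direction lay inside the interval, so these 8 mice did not exclude a change of that size. In sorted bulk RNA, fewer dividing cells and less of a transcript per cell cannot be told apart.

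**Figure D1:**
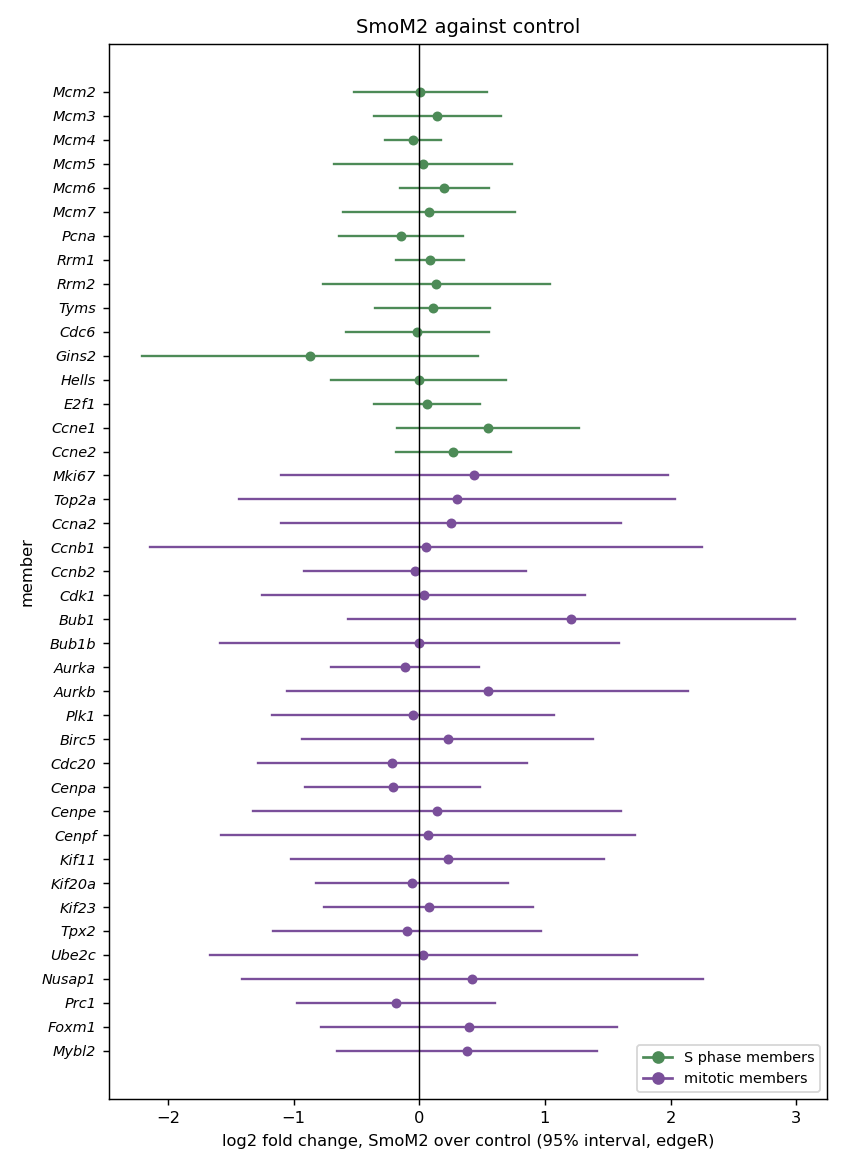
The log2 fold change of each of the 41 members, SmoM2-labelled over control, with its 95% interval from edgeR, S phase members in green and mitotic members in purple. All intervals cross 0, and those of the mitotic members are mostly wider, from −0.57 to 2.99 for Bub1 against −0.27 to 0.17 for Mcm4. The size of the Bub1 estimate is uncertain, with about 3 fragments in control 3 and in SmoM2 2.

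The MCM helicase subunits overlapped between the groups, and they differed in how much they varied. Mcm4 was at 37.2, 43.8, 41.5 and 42.1 CPM in controls 1 to 4 and at 33.9, 40.5, 42.8 and 41.9 CPM in SmoM2-labelled libraries 1 to 4. The groups overlapped, and the highest library was 1.29 times the lowest. Its log2 fold change was −0.05 ± 0.10 (SE), with an interval of 0.83- to 1.13-fold. Mcm6 was at 18.4, 20.4, 15.2 and 15.8 CPM in the controls and at 20.3, 17.6, 17.1 and 25.3 CPM in the SmoM2-labelled libraries. SmoM2 4 was the highest and the others were interleaved (log2 fold change 0.20 ± 0.16). The mean levels of the other subunits were 7.41 ± 1.32 and 7.45 ± 2.24 CPM for Mcm2, 9.38 ± 2.17 and 10.4 ± 2.55 CPM for Mcm3, 6.47 ± 1.92 and 6.62 ± 2.57 CPM for Mcm5, and 18.9 ± 7.62 and 20.0 ± 5.24 CPM for Mcm7 (SD, n = 4 each). Mcm5 and Mcm7 varied most, with a highest library 2.48 and 2.43 times the lowest, against a median of 1.98 over all genes tested.

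Pcna, the sliding clamp, was the most abundant member per length, at 22.1 CPM per kb of exon. It was at 52.6, 56.5, 40.9 and 72.4 CPM in the controls and at 47.1, 38.3, 69.0 and 46.8 CPM in the SmoM2-labelled libraries. Its highest libraries were control 4 and SmoM2 3, both female, and the groups overlapped (log2 fold change −0.15 ± 0.22). Rrm1, the large subunit of ribonucleotide reductase, was at 27.0, 29.4, 31.3 and 27.5 CPM in the controls and at 27.1, 28.0, 29.2 and 37.6 CPM in the SmoM2-labelled libraries. All but SmoM2 4 lay in a narrow band, and the log2 fold change was 0.08 ± 0.12. The small subunit Rrm2, whose transcript is tied to S phase more tightly, varied more: 8.28, 4.22, 2.51 and 3.79 CPM in the controls and 5.22, 3.73, 3.81 and 7.89 CPM in the SmoM2-labelled libraries. Control 1 and SmoM2 4 were its highest libraries, and its highest was 3.30 times its lowest. Tyms, thymidylate synthase, averaged 5.22 ± 1.10 and 5.61 ± 0.79 CPM.

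Of the genes that prepare and start replication, Cdc6, which loads the helicase, averaged 3.45 ± 0.51 and 3.41 ± 1.13 CPM, and E2f1 averaged 7.97 ± 1.54 and 8.32 ± 1.29 CPM. Hells, a chromatin remodeller, averaged 2.86 ± 0.91 and 2.85 ± 0.90 CPM. Ccne1, cyclin E1, was at 0.94, 1.81, 0.89 and 1.06 CPM in the controls and at 1.42, 1.46, 1.50 and 2.49 CPM in the SmoM2-labelled libraries. All 4 SmoM2-labelled values were above controls 1, 3 and 4, and SmoM2 4 alone was also above control 2. The log2 fold change of 0.54 ± 0.32 (interval −0.18 to 1.27) was the highest estimate among the S phase members, with an unadjusted p of 0.123. Ccne2, cyclin E2, averaged 2.85 ± 0.47 and 3.44 ± 0.58 CPM (log2 fold change 0.27 ± 0.20).

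Gins2, a subunit of the replicative helicase complex, had the lowest estimate. It was at 15.5, 7.57, 6.75 and 8.64 CPM in the controls and at 7.30, 1.26, 2.74 and 9.71 CPM in the SmoM2-labelled libraries. SmoM2 2 and 3 were low and the other libraries overlapped, with a log2 fold change of −0.87 ± 0.59 (interval −2.21 to 0.46). The exons of Gins2 overlap those of Gse1 on the opposite strand over 67.3% of their length, and Gse1 lay between 76.5 and 140.6 CPM. Whether the counts used strand is not given in the sources used here, so reads of these 2 genes cannot be told apart and the level of Gins2 is uncertain. Exons of 10 of the 41 members overlap a gene on the opposite strand, 6 of them by over 10% of their length. The other 5 were Kif20a (29.3%, with Cdc23), Ube2c (22.8%, with Tnnc2), Ccne2 (17.4%, with Ints8), Ccna2 (12.5%, with Exosc9) and Prc1 (11.1%, with Rccd1). The same limit applies to their levels. Cdc23 lay between 45.0 and 52.4 CPM and Ints8 between 32.7 and 44.7 CPM. Kif20a and Ccne2 had means of only 2.05 and 3.15 CPM. Tnnc2 lay between 0 and 5.70 CPM, beside a mean of 1.15 CPM for Ube2c.

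**Figure D2:**
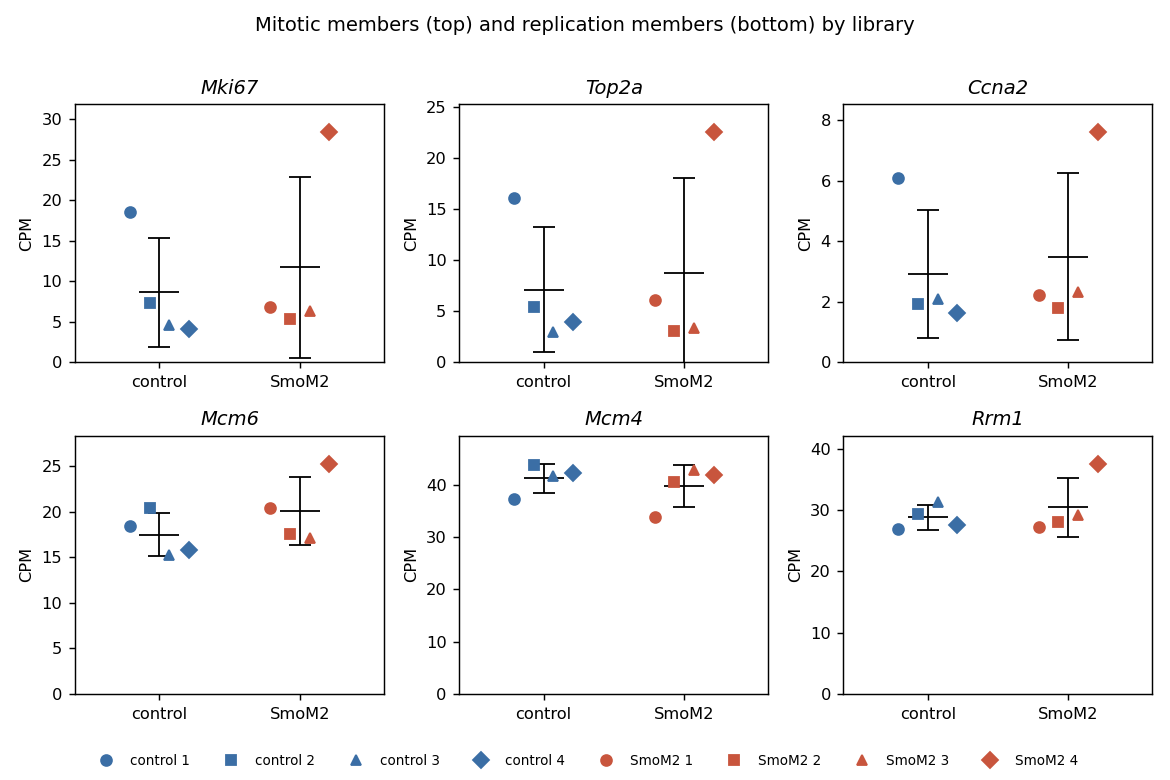
CPM of 3 mitotic members (top) and 3 replication members (bottom) in each library, with the group mean and SD (n = 4 each) in black, where a bar that would pass below 0 ends at the axis. Control 1 and SmoM2 4 stand above the other 6 libraries for Mki67, Top2a and Ccna2, and not for Mcm4.

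The mitotic members were expressed lower and varied more. Their median level was 0.52 CPM per kb of exon against 1.80 CPM per kb for the S phase members, and 12 of the 25 averaged under 2 CPM. Mki67, the gene of the proliferation marker Ki-67, was at 18.5, 7.31, 4.61 and 4.17 CPM in controls 1 to 4 and at 6.85, 5.33, 6.28 and 28.4 CPM in SmoM2-labelled libraries 1 to 4. The groups overlapped, and a single library in each stood far above the rest. The log2 fold change was 0.44 ± 0.68 (interval −1.10 to 1.98). Top2a, the topoisomerase that untangles chromosomes, was at 16.1, 5.44, 2.96 and 4.00 CPM in the controls and at 6.09, 3.06, 3.40 and 22.6 CPM in the SmoM2-labelled libraries. The same libraries, control 1 and SmoM2 4, were high, and the log2 fold change was 0.30 ± 0.76.

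The cyclins and their kinase repeated this order. Ccna2, cyclin A2, was at 6.10, 1.93, 2.08 and 1.63 CPM in the controls and at 2.22, 1.80, 2.33 and 7.61 CPM in the SmoM2-labelled libraries. The other 6 libraries lay close together, all well below control 1 and SmoM2 4. Ccnb1, cyclin B1, was at 1.95, 0.57, 0.72 and 0.13 CPM in the controls and at 0.66, 0.37, 0.12 and 2.33 CPM in the SmoM2-labelled libraries. Its values in control 4 and SmoM2 3 rest on about 3 fragments each at 5 units a fragment, so no ratio to them is given. It was again highest in control 1 and SmoM2 4, and its log2 fold change was 0.05 ± 0.96. Cdk1, the kinase that drives entry into mitosis, averaged 1.13 ± 0.75 and 1.16 ± 0.63 CPM, and Ccnb2 averaged 2.27 ± 0.80 and 2.21 ± 1.07 CPM (SD, n = 4 each).

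The kinases and checkpoint genes of mitosis overlapped between the groups. Plk1, which acts from mitotic entry to cytokinesis, averaged 1.84 ± 1.07 and 1.77 ± 0.96 CPM. Aurka, a kinase of the spindle poles, averaged 2.02 ± 0.65 and 1.87 ± 0.27 CPM, and was the steadiest mitotic member, with a highest library 1.97 times its lowest. Aurkb, the kinase of the chromosomal passenger complex, was at 1.46, 0.69, 0.51 and 0.44 CPM in the controls and at 0.51, 0.42, 0.65 and 2.94 CPM in the SmoM2-labelled libraries. Its log2 fold change of 0.54 ± 0.70 became −0.55 without SmoM2 4. Birc5, survivin of the same complex, averaged 1.64 ± 0.78 and 1.92 ± 1.37 CPM. Bub1b, a checkpoint protein of the kinetochore, averaged 3.13 ± 2.41 and 3.13 ± 2.85 CPM.

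Bub1, its partner in the checkpoint, had the highest estimate of all members. It was at 0.76, 0.45, 0.15 and 0.19 CPM in the controls and at 0.50, 0.18, 0.82 and 2.08 CPM in the SmoM2-labelled libraries. SmoM2 4 was the highest, followed by SmoM2 3 and control 1, and the groups overlapped. The values in control 3 and SmoM2 2 rest on about 3 fragments each, and that in control 4 on about 4. These fragment numbers depend on the assumed units per fragment, and they leave the size of the Bub1 estimate uncertain. The log2 fold change was 1.21 ± 0.78 (interval −0.57 to 2.99), with an unadjusted p of 0.157, at the lowest mean level of the 41 (0.64 CPM). Cdc20, which activates the ubiquitin ligase that ends mitosis, averaged 2.35 ± 1.38 and 2.02 ± 1.07 CPM, and its log2 fold change of −0.21 ± 0.47 was the lowest among the mitotic members. Ube2c, the conjugating enzyme of that ligase, averaged 1.13 ± 0.90 and 1.16 ± 1.14 CPM.

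Among the centromere and kinetochore genes, Cenpa, the histone variant that marks centromeres, did not share the order of the others. It was at 3.79, 5.17, 3.71 and 2.64 CPM in the controls and at 2.81, 2.03, 3.63 and 4.74 CPM in the SmoM2-labelled libraries. Control 2 was its highest library, and the log2 fold change was −0.21 ± 0.30. Cenpe, a kinetochore motor, averaged 1.48 ± 1.20 and 1.63 ± 1.22 CPM, and Cenpf averaged 1.36 ± 1.04 and 1.42 ± 1.20 CPM.

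The spindle and cytokinesis genes were again highest in control 1 and SmoM2 4. Kif11, the motor that separates the spindle poles, was at 6.23, 2.79, 2.09 and 2.56 CPM in the controls and at 2.67, 1.84, 2.77 and 8.70 CPM in the SmoM2-labelled libraries. Nusap1, a microtubule-bundling protein, was at 4.76, 1.07, 0.61 and 0.83 CPM in the controls and at 1.62, 0.63, 2.06 and 5.41 CPM in the SmoM2-labelled libraries. In both genes the remaining 6 libraries were low in either group, with log2 fold changes of 0.23 ± 0.55 and 0.42 ± 0.80. The cytokinesis motors Kif20a and Kif23, the midzone protein Prc1 and the spindle assembly factor Tpx2 had mean levels of 1.96 to 2.87 CPM over the 8 libraries and log2 fold changes between −0.18 and 0.08.

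The 2 transcription factors of the mitotic programme did not match each other. Mybl2, B-Myb, was at 2.11, 0.83, 0.72 and 1.33 CPM in the controls and at 1.35, 1.08, 1.15 and 2.90 CPM in the SmoM2-labelled libraries, with the same high libraries as most mitotic members. Foxm1 was at 3.50, 1.61, 4.43 and 1.29 CPM in the controls and at 2.51, 4.92, 1.49 and 5.33 CPM in the SmoM2-labelled libraries. Its control 3 and SmoM2 2 values were high where most mitotic members were at their lowest. The log2 fold changes were 0.38 ± 0.45 and 0.40 ± 0.52.

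**Figure D3:**
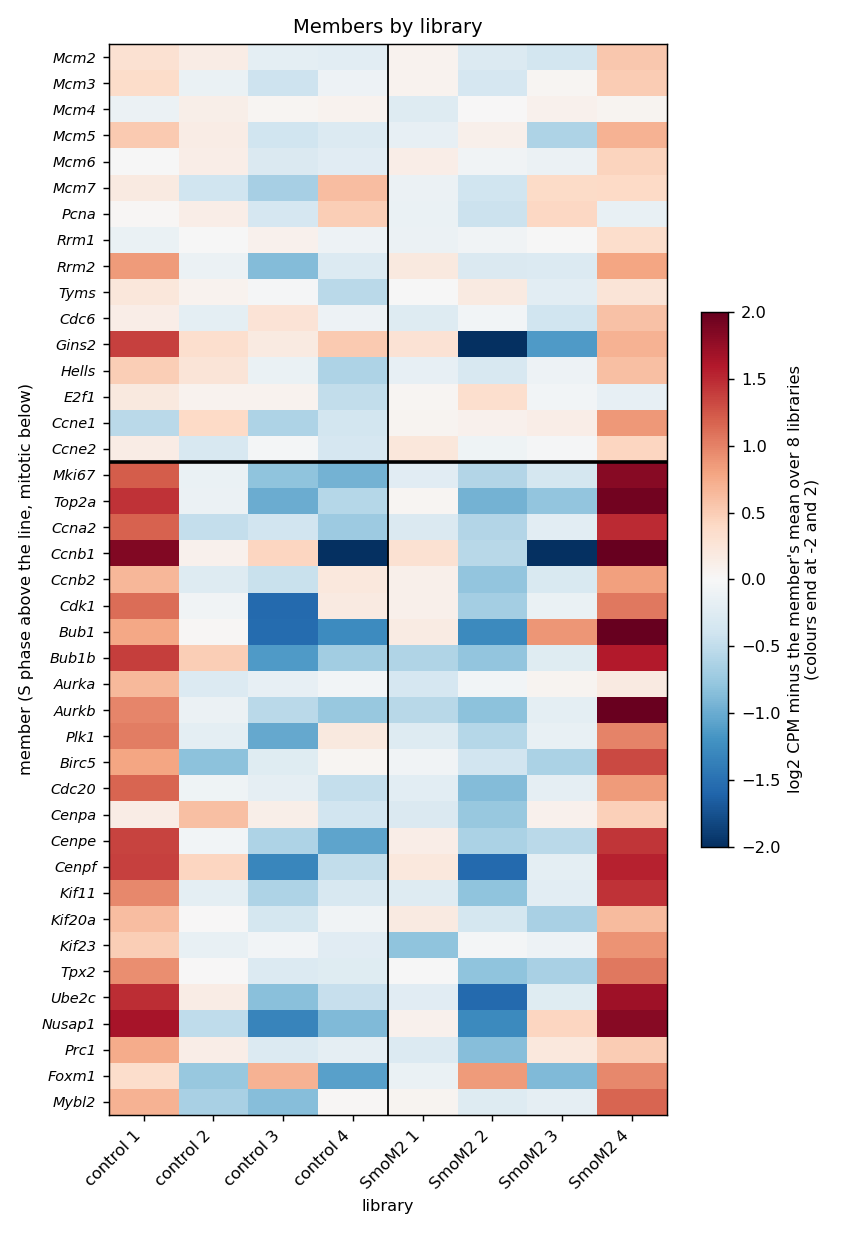
Each member (rows, S phase above the line and mitotic below) in each library (columns), as log2 CPM minus the member's mean over the 8 libraries, with red for higher and blue for lower and the colours ending at −2 and 2. In the mitotic block the columns of control 1 and SmoM2 4 are red for nearly every gene, while the S phase block is mostly pale, Gins2 being the clearest exception.

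Control 1 and SmoM2 4 were the 2 highest libraries for 22 of the 25 mitotic members, all but Bub1, Cenpa and Foxm1. They were so for 7 of the 16 S phase members (Mcm2, Mcm3, Mcm5, Rrm2, Tyms, Gins2 and Hells) and for 4.27% of all genes tested. The summed level of the mitotic members was 113.6, 52.3, 40.4 and 40.8 CPM in the controls and 50.0, 37.8, 45.7 and 143.5 CPM in the SmoM2-labelled libraries. The mean sums of the groups were 61.8 ± 35.0 and 69.3 ± 49.8 CPM. The summed level of the S phase members was 238, 225, 193 and 237 CPM in the controls and 205, 190, 231 and 257 CPM in the SmoM2-labelled libraries. In such a sum abundant members like Pcna weigh most. The mean log2 CPM of the S phase members was highest in SmoM2 4 (3.47) and control 1 (3.30), and lay between 2.80 and 3.09 elsewhere. SmoM2 4 was the highest library for 10 of the 16. The highest mitotic sum was 3.80 times the lowest, and the highest S phase sum was 1.36 times the lowest.

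The spread between mice of 1 group was larger for mitotic members than for other genes of their level. Their median SD of log2 CPM within a group was 0.86, against 0.42 for the 6248 tested genes in the same range of mean CPM. Of the 25, 24 were above the median of all genes tested (0.34), and 15.5% of all genes tested had an SD at or above 0.86. The S phase members had a median SD of 0.34, against 0.26 for the 10296 genes in their own range. These are descriptions, since the genes of a library are not independent.

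**Figure D4:**
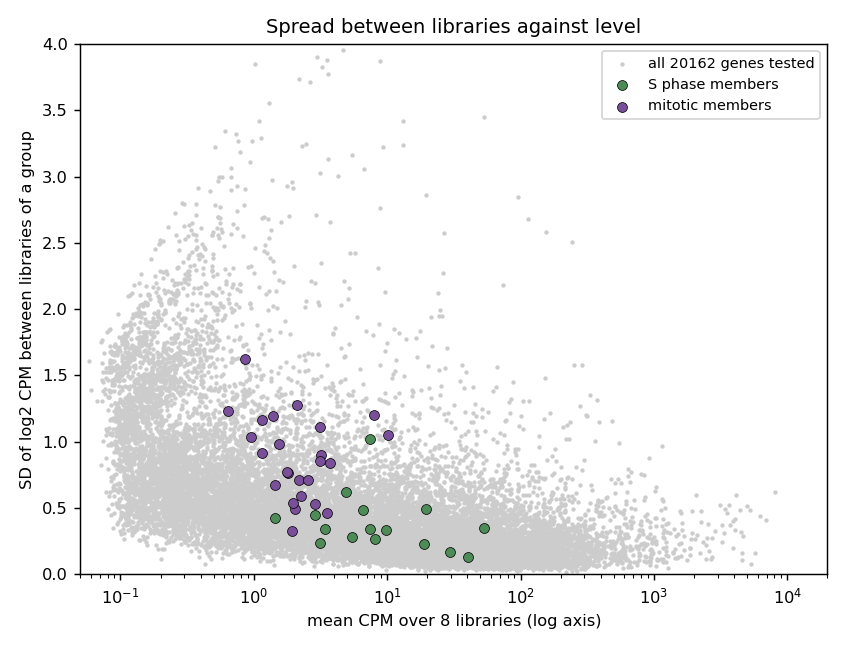
The SD of log2 CPM between libraries of a group against the mean CPM over the 8 libraries (log axis) for all 20162 genes tested (grey), S phase members (green) and mitotic members (purple). Most mitotic members lie above the bulk of grey points at their level, with a median SD of 0.86, and most S phase members lie lower, with a median of 0.34.

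Without control 1 and SmoM2 4, an omission chosen after their mitotic levels were seen, the summed mitotic level lay between 37.8 and 52.3 CPM in the other 6 libraries. The median ratio of highest to lowest library over the 25 members was 2.05, against 4.67 with all 8, and was 1.83 over all genes tested in the same 6 libraries. edgeR called 0 members in these 6, with a mitotic median log2 fold change of −0.05 (10 higher, 15 lower) and an S phase median of −0.01 (8 higher, 8 lower). With all 8 libraries the mitotic median was 0.07. Of the 8 single omissions, those of control 1 and of SmoM2 4 moved it furthest, in opposite directions. Without control 1 the median was 0.62, with 24 members higher and 1 lower, and without SmoM2 4 it was −0.47, with 2 higher and 23 lower. The median was also slightly negative without control 3 (−0.06) or control 4 (−0.006).

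Some markers of immune cells were highest in the same libraries as the mitotic members. The summed level of 18 immune markers was 836, 565, 769 and 785 CPM in the controls and 575, 849, 872 and 1764 CPM in the SmoM2-labelled libraries, none of them at 0 in any library. SmoM2 4 was the highest by far and control 1 was not apart from other libraries. The most abundant, Lyz2 of myeloid cells and the antigen-presentation gene Cd74, were highest in SmoM2 4, at 723 and 399 CPM. The 6 of the 18 with control 1 and SmoM2 4 as their highest libraries were Ptprc, Cd74, H2-Aa and the T cell genes Cd3e, Cd3g and Trbc2.

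After these values were seen, 3 further marker lists were written, which are given without a test and cannot stand as independent support. The sum of 18 T cell genes was 194, 62.6, 43.7 and 37.2 CPM in the controls and 77.5, 30.7, 27.5 and 297.9 CPM in the SmoM2-labelled libraries, and 16 of the 18 were highest in control 1 and SmoM2 4. The sum of 12 macrophage genes was 222, 168, 176 and 119 CPM in the controls and 166, 201, 187 and 552 CPM in the SmoM2-labelled libraries. The sum of 8 genes of immature T cells, as found in the thymus, was 72.2, 9.09, 2.89 and 2.30 CPM in the controls and 24.0, 4.48, 3.01 and 112.6 CPM in the SmoM2-labelled libraries. These 8 were picked from a longer set of candidates whose values had been looked at, so that all 8 share the order is fixed by the choice. Rag1, which cuts the antigen receptor genes in developing lymphocytes, was at 20.9, 1.57, 0.09 and 0.10 CPM in the controls and at 6.93, 0.09, 0.16 and 40.2 CPM in the SmoM2-labelled libraries. SmoM2 1 was the next highest for Rag1 and for the immature T cell sum. Its mitotic sum of 50.0 CPM was close to that of control 2 (52.3 CPM). The mean log2 CPM of 48 other mitotic genes, described below, was 0.57 in each of these 2 libraries. The part of these cells in the mitotic levels was not tested.

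**Figure D5:**
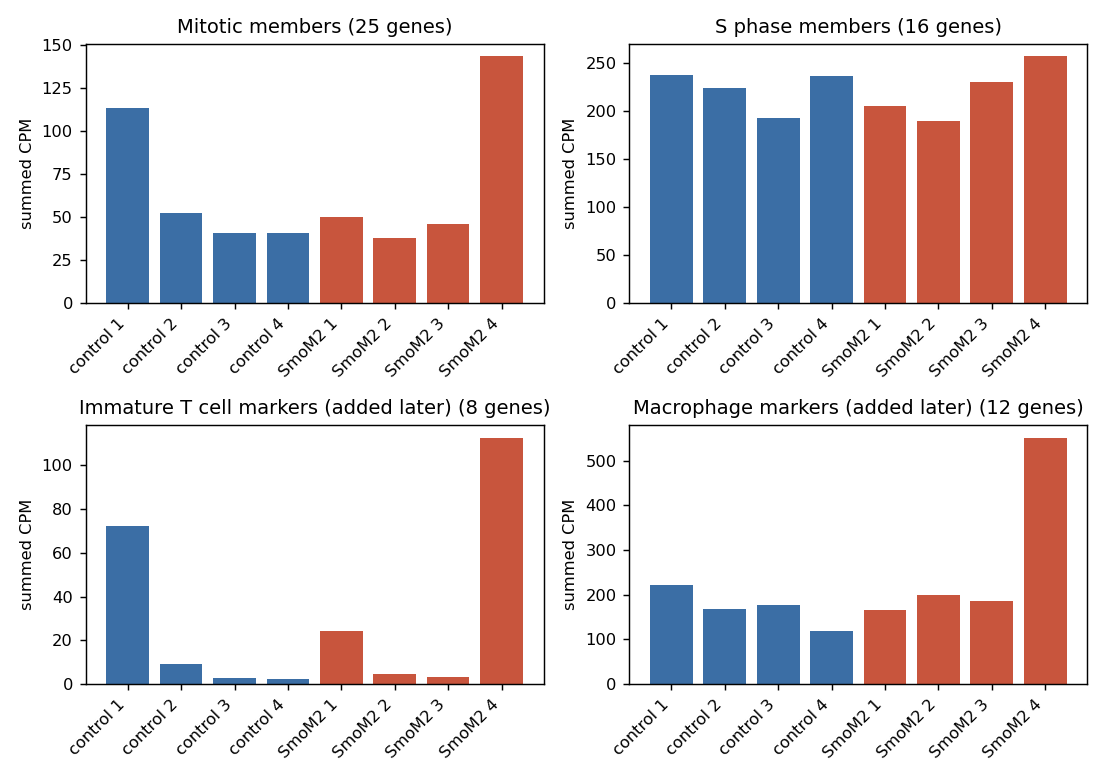
Summed CPM in each library, controls in blue and SmoM2-labelled libraries in red, for the mitotic members, the S phase members, 8 immature T cell genes and 12 macrophage genes, the last pair of lists chosen after values were seen. The S phase sums, in which abundant genes weigh most, lie between 190 and 257 CPM. They are highest in SmoM2 4, with controls 1 and 4 next. Control 1 and SmoM2 4 are the tallest bars for mitotic genes (113.6 and 143.5 CPM) and immature T cell genes (72.2 and 112.6 CPM). The 8 immature T cell genes were picked with their values known, so that they share this order is fixed by the choice.

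For markers of other cell types these were not the 2 highest libraries. None of the markers of lung stroma, myeloid precursors, red blood cells, endothelium, epithelium, mesothelium, pericytes and smooth muscle, or cartilage, and none of the immediate early genes that tissue digestion induces, had control 1 and SmoM2 4 as its 2 highest libraries. SmoM2 4 stood apart in other ways. It was the lowest library for 11 of the 13 immediate early genes, whose sum was 19419 CPM there and 29853 to 47748 CPM in the other libraries. It was the highest for 4 of the 7 myeloid precursor genes, whose sum was 3.70, 6.64, 3.80 and 7.88 CPM in the controls and 3.59, 7.65, 12.2 and 37.6 CPM in the SmoM2-labelled libraries. Of these 7, 4 passed edgeR's filter and 0 were called, with 2 higher at an unadjusted p under 0.05, beside 3.75% of all genes tested. DESeq2 called 1, beside 0.275% of the genes it tested. This was Mpo, which was at 0 in 5 libraries and at most 0.47 CPM. The stromal sum lay between 20409 and 34667 CPM. The part of these differences in the mitotic levels was not tested.

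The mitotic estimates also pointed in opposite directions in the sexes. Control 1 was male and SmoM2 4 female, so a difference by sex and these 2 high libraries cannot be told apart. The median log2 difference of the mitotic members was −0.65 between the 2 male pairs and 0.76 between the 2 female pairs, and that of the S phase members was −0.08 and 0.23. A sex-by-group term in edgeR, added after the data were seen, called 0 members at an adjusted p under 0.05, with 1 of 41 (Ccna2) at an unadjusted p under 0.05. These shares were 0.00496% and 1.91% over all genes tested. Libraries of the same sex and group differed in their mitotic sums, at 113.6 and 40.4 CPM for the male controls 1 and 3 and at 143.5 and 45.7 CPM for the female SmoM2 4 and 3.

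Other genes of the cell cycle were taken from 4 lists set beside the members, and DESeq2 called 0 genes in each of them. Of 31 other replication genes edgeR called 0 at an adjusted p under 0.05 and 0 had an unadjusted p under 0.05, with a median log2 fold change of 0.01 (16 higher, 15 lower). The most abundant were Rpa1, which coats single-stranded DNA (36.1 ± 6.98 and 34.0 ± 3.55 CPM), Orc2 of the origin recognition complex (20.2 ± 1.20 and 19.1 ± 2.87 CPM), the polymerase gene Pold1 (20.1 ± 1.78 and 18.8 ± 2.45 CPM) and Slbp, which binds histone mRNA (19.0 ± 3.14 and 18.8 ± 1.69 CPM). Control 1 and SmoM2 4 were the highest libraries for 6 of the 31.

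Of 48 other mitotic genes 47 passed the filter, all but Cdc25c. edgeR called 0, and the median log2 fold change was 0.11 (31 higher, 16 lower). Control 1 and SmoM2 4 were the highest libraries for 38 of the 48. The exceptions included the most abundant of the list. Hjurp, the chaperone of the centromeric histone, averaged 44.4 ± 21.8 and 41.9 ± 24.6 CPM and was at its lowest in SmoM2 4 (19.5 CPM). Bub3 averaged 41.9 ± 4.66 and 40.8 ± 2.75 CPM, and the condensin gene Smc4 averaged 23.6 ± 2.73 and 24.6 ± 6.34 CPM.

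Pttg1, securin, which holds back the separation of sister chromatids until anaphase, was the 1 gene of this list with an unadjusted p under 0.05 and with groups that did not overlap. Over all genes tested these shares were 3.75% and 2.44%, so 1 of 47 is near the background. It was at 22.9, 25.1, 24.8 and 25.3 CPM in the controls and at 18.6, 10.3, 14.5 and 18.5 CPM in the SmoM2-labelled libraries. Every SmoM2-labelled library was below every control, and control 1 and SmoM2 4 were not high. The log2 fold change was −0.66 ± 0.18 (interval −1.08 to −0.25). Its unadjusted p was 0.00581, and it did not pass edgeR's adjusted threshold over all genes (adjusted p = 0.9999).

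The genes that govern entry into the cycle had higher median levels than the mitotic members, 3.29 CPM per kb for the G1 list and 6.59 CPM per kb for the inhibitors against 0.52, though single genes of the lists overlapped in level. Of 11 G1 cyclins, kinases and inducers edgeR called 0, with a median log2 fold change of −0.06 (4 higher, 7 lower). Ccnd2, cyclin D2, averaged 129.0 ± 48.2 and 139.5 ± 15.1 CPM, Myc 76.7 ± 26.7 and 88.0 ± 7.94 CPM, Ccnd3 55.5 ± 2.90 and 59.9 ± 12.5 CPM, and the kinase gene Cdk4 53.3 ± 5.58 and 53.1 ± 1.61 CPM. Of 21 inhibitors and repressors edgeR called 0, with a median of 0.00 (11 higher, 10 lower). The anti-proliferative gene Btg2 averaged 1976 ± 188 and 1875 ± 475 CPM, Cdkn1a, the p21 inhibitor, 323.7 ± 52.4 and 368.2 ± 62.0 CPM, Btg1 264.2 ± 17.0 and 269.2 ± 11.9 CPM, and the pocket protein gene Rbl2 102.3 ± 11.2 and 96.5 ± 13.1 CPM. A single gene in each of these lists (1 of 11 and 1 of 21) had an unadjusted p under 0.05, beside 3.75% of all genes tested. Each is named here because its values were seen. E2f3, an activating E2F, averaged 10.6 ± 1.65 and 7.97 ± 0.83 CPM (log2 fold change −0.42 ± 0.15, unadjusted p = 0.0207, edgeR). Cdkn2c, the p18 inhibitor of CDK4 and CDK6, averaged 16.5 ± 2.33 and 11.5 ± 1.75 CPM (−0.52 ± 0.15, unadjusted p = 0.00768, edgeR). In both genes every SmoM2-labelled library was below every control, while 2.44% of all genes tested had groups that did not overlap. Neither passed after adjustment over all genes (adjusted p = 0.9999, edgeR). The sum of 10 mesothelial markers separated the groups in the same direction as Pttg1, E2f3 and Cdkn2c. This sum was 451, 327, 522 and 292 CPM in the controls and 224, 237, 118 and 136 CPM in the SmoM2-labelled libraries. All 10 estimates were lower, and the groups did not overlap for 5 of the 10, beside 2.44% of all genes tested. edgeR called 0 of the 10, with 7 at an unadjusted p under 0.05, beside 3.75% of all genes tested. DESeq2 called 3 of the 10, beside 0.275% of the genes it tested. Other lists leaned the same way. Of 15 epithelial markers 13 estimates were lower and 2 higher, and 3 had groups that did not overlap. Of 12 endothelial markers 10 were lower and 2 higher, and 2 had groups that did not overlap. The part of these cell types in the levels of Pttg1, E2f3 and Cdkn2c was not tested.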

How the data were processed

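Per the labels' protocols, RNA of sorted cells was amplified with an oligo-dT kit for which no strand step is described. Per the submitters' processing notes, the tools were FastQC, HISAT, StringTie and DESeq and the build mm10, with no versions. The authors deposited estimated counts per gene, already whole numbers. Their comparison table holds, per the file headers, a normalised signal for each group, the ratio of these on a linear and a log2 scale, and p-values with and without adjustment. Column names give group and number but not the animal, while the titles number 8 separate animals, so the tests rest on the variation among mice. Members and lists were chosen with earlier results of these data known.

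edgeR 4.0.16 (R 4.3.3; TMM factors, filterByExpr, robust glmQLFit, group only) was fitted to all 8 libraries, with Benjamini-Hochberg adjustment over 20162 genes and a threshold of 0.05. Each SE was obtained as |log2 fold change| divided by the root of its F statistic. CPM used TMM library sizes, and log2 CPM a prior of 2 units. That 1 fragment adds 5 units is an assumption the values do not settle. The fit was tested on simulated data. DESeq2 1.42.0, limma 3.58.1, other filters, scalings, sex as a term and each library left out were the alternatives. No pair of libraries was as alike as sampling noise allows, and all 8 were kept.

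Exon lengths came from GENCODE M21 (mm10). From other pathway lists the 4 most abundant members, and from marker lists the 2 most abundant, were to be named. Promoters were to be those of the 2 most abundant members of each kind with a motif. Pcna and Mcm7 were passed over because annotated exons lie in their windows, an exception made after seeing them, and the motif letters were chosen at the same stage.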

Additional observations from a re-analysis of the deposited data

Results flagged for a closer look

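In each group of 4 libraries the highest and the lowest value of each member were compared with the rest by Dixon's gap ratio. Of 82 groups 14 held a library that stood apart. Chance flags about 1 in 20 groups if values are normally distributed. The ratio was taken on CPM without logs, and whether they are so distributed was not tested. The 41 members also share the same 8 libraries. All 14 were high values in control 1 or SmoM2 4, and 13 of them were in mitotic members.

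In SmoM2 4 the values that stood apart were 28.4 CPM for Mki67 (the next highest of its group 6.85), 22.6 CPM for Top2a (next 6.09), 7.61 CPM for Ccna2 (next 2.33), 8.70 CPM for Kif11 (next 2.77) and 7.39 CPM for Bub1b (next 2.09). They were also 3.95 CPM for Birc5, 2.94 CPM for Aurkb, 2.90 CPM for Mybl2 and, alone among the S phase members, 2.49 CPM for Ccne1. In control 1 they were 6.10 CPM for Ccna2 (next 2.08), 6.23 CPM for Kif11 (next 2.79), 4.76 CPM for Nusap1 (next 1.07), 4.40 CPM for Cdc20 and 4.38 CPM for Tpx2.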

How the results depend on the processing

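No member was called under any of 16 alternatives, over 652 values, where the smallest adjusted p was 0.818. For Aurkb DESeq2 gave no p. Over all genes DESeq2 called 67 (31 higher, 36 lower), and leaving out 1 library at a time gave 0 to 1 called genes, the 1 gene, lower, without SmoM2 4; the cause was not tested. The mitotic median ranged from −0.47 (without SmoM2 4) to 0.62 (without control 1), and the S phase median from −0.05 to 0.16 over the same 8 omissions. Signs of the uncalled estimates were not stable: 15 of 25 mitotic and 6 of 16 S phase members changed sign without SmoM2 4, 7 and 2 without control 1, 1 to 7 and 2 to 5 without any other library, and 9 and 3 without control 1 and SmoM2 4 together, the last an alternative chosen after seeing the data. Aurkb moved by over 1 SD, to −0.55, without SmoM2 4. Changing the tool, scaling, filter or scale, or adding sex, turned the sign of 0 to 4 mitotic and 0 to 2 S phase members. A filter at a mean of 1 CPM left 22 mitotic members, and dividing counts by 5 left 24. Depth limits the rarest transcripts: 6 members had under 10 fragments in some library. No paired analysis was possible because the animal numbers in the titles are not shared between the groups and the columns do not say which animal each library came from.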
